A study of Mus musculus with 8 samples.

Results

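The B cell identity genes described here are 9 transcripts that mark cells of the B lineage: Cd79a, Cd79b, Ms4a1, Cd22, Cd37, Blk, Bank1, Spib and Pou2af1. They were taken by gene name from a table of 26709 genes, and all 9 were found in it. They were measured by RNA sequencing in 8 tumours of EMT6, a carcinoma line of the mouse mammary gland, carried by syngeneic Balb/c mice of wild-type genotype. In 4 tumours the animals had been given GrB-Fc-KS49, which the labels list as granzyme B and the series title as a human fusion protein aimed at the membrane protein EMP2, and in the other 4 they had been given control IgG. Both agents were given 3 times within 10 days. The labels call the cells epithelial tumour cells, but whole tumours were sequenced, and transcripts of T cells, macrophages and B cells were present beside the keratin Krt8 of epithelial cells, at 528 ± 108 CPM in the GrB-Fc-KS49 tumours and 444 ± 23.3 CPM in IgG controls (SD, n = 4 each). Whether each tumour came from its own animal is not stated in the labels, and every p-value refers only to the spread among the tumours sequenced. In bulk RNA, fewer cells of a type and less RNA per cell cannot be told apart.

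A B cell senses antigen with a membrane antibody that has almost no tail inside the cell, so the signal is carried by the CD79A and CD79B chains bound to it. Kinases of the Src family, such as BLK, phosphorylate these chains and adaptors such as BANK1 join them, while lectins such as CD22 recruit phosphatases that hold the signal down. The lineage is kept by transcription factors and coactivators, among them SPIB and POU2AF1, the partner of the octamer-binding POU factors. In tumours, B cells are known from scattered infiltrates and from lymphoid aggregates.

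Group means of all 9 genes were higher in GrB-Fc-KS49 tumours than in IgG controls, as were those of 57.3% of all 26709 genes. For 6 of them, namely Cd79a, Cd79b, Ms4a1, Cd22, Spib and Pou2af1, log2 fold changes lay between 1.88 and 2.58, and for Cd37, Blk and Bank1 between 0.31 and 0.63. No member passed a Benjamini-Hochberg adjusted p under 0.05 in edgeR's quasi-likelihood test, and neither did any other gene: 0 of 19718 genes were called, or 0%. At an unadjusted p under 0.05 the same test had 6915 genes, or 35.1% of those tested. Levels are given as CPM, counts scaled to 1e6 per library, corrected with trimmed-mean (TMM) factors.

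The 2 signalling chains of the B cell receptor were scarce in every tumour. Cd79a was at 0.714, 0.399, 0.143 and 0.211 CPM in the GrB-Fc-KS49 tumours 1 to 4, against 0.048, 0.092, 0.069 and 0.112 CPM in IgG controls 1 to 4. The groups did not overlap, and tumour 1 stood highest. The means were 0.367 ± 0.255 CPM in GrB-Fc-KS49 tumours, against 0.0803 ± 0.0275 CPM in the IgG controls (SD, n = 4 each), a log2 fold change of 2.17 with an SE of 0.55 (adjusted p = 0.0619, edgeR quasi-likelihood test). Without GrB-Fc-KS49 tumour 1 the treated mean was 0.251 CPM. Cd79b, the partner chain, was at 1.603, 1.465, 0.286 and 0.696 CPM in the GrB-Fc-KS49 tumours and at 0.085, 0.237, 0.262 and 0.310 CPM in IgG controls. Tumour 3 lay within the control range and the other 3 treated tumours lay above it. Its log2 fold change was also 2.17, with an SE of 0.58 (adjusted p = 0.0623, edgeR quasi-likelihood test). These levels rest on few reads: Cd79a had 57, 30, 12 and 17 counts in GrB-Fc-KS49 tumours and 4, 7, 5 and 9 counts in IgG controls, and it passed the low-count filter only through the treated libraries. The coordinates on GRCm39 are chr7:24596806-24601622 on the + strand for Cd79a (ENSMUSG00000003379) and chr11:106202167-106205588 on the - strand for Cd79b (ENSMUSG00000040592).

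Ms4a1 encodes CD20, the surface protein that anti-CD20 antibodies bind on B cells. It had 23, 33, 5 and 16 counts in GrB-Fc-KS49 tumours 1 to 4, against 6, 1, 3 and 6 counts in IgG controls 1 to 4, which is 0.288, 0.439, 0.059 and 0.199 CPM in the treated tumours against 0.073, 0.013, 0.041 and 0.074 CPM in the controls. Tumour 3 lay inside the control range, and its exact Poisson interval of 1.62 to 11.7 counts (95%, counting error only) holds the control counts of 3 and 6. The other 3 treated tumours lay above every control. Ms4a1 reached the low-count filter in too few libraries, and in the edgeR fit without that filter its log2 fold change was 2.22 with an SE of 0.65 (adjusted p = 0.088, quasi-likelihood test). The gene (ENSMUSG00000024673) lies at chr19:11227039-11243605 on the - strand of GRCm39.

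Cd22, an inhibitory lectin that binds sialic acid, separated the groups with the most even controls. It was at 2.22, 2.18, 0.666 and 0.908 CPM in the GrB-Fc-KS49 tumours and at 0.411, 0.369, 0.400 and 0.434 CPM in IgG controls. Every treated tumour was above every control, with tumours 1 and 2 well above tumours 3 and 4. The means were 1.49 ± 0.822 CPM in GrB-Fc-KS49 tumours, against 0.404 ± 0.0270 CPM in the IgG controls (SD, n = 4 each); the treated mean was 1.25 CPM without tumour 1. The log2 fold change was 1.88 with an SE of 0.41 (adjusted p = 0.0619, edgeR quasi-likelihood test). Cd22 (ENSMUSG00000030577) lies at chr7:30564827-30579767 on the - strand of GRCm39.

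Cd37, a tetraspanin of B cells that other leukocytes also carry, was by far the most abundant member. It was at 18.7, 13.1, 14.7 and 7.95 CPM in the GrB-Fc-KS49 tumours and at 10.3, 9.40, 7.69 and 8.83 CPM in IgG controls. Tumour 4 lay within the control range and the other 3 treated tumours above it. Its log2 fold change was 0.59 with an SE of 0.23 (unadjusted p = 0.0333, adjusted p = 0.114, edgeR quasi-likelihood test), and it was 0.39 with an unadjusted p of 0.0962 in the edgeR fit without tumour 1. Cd37 (ENSMUSG00000030798, chr7:44883056-44888539, - strand) overlaps at its end the gene Tead2 on the opposite strand, which averaged 50.6 CPM in GrB-Fc-KS49 tumours, against 51.7 CPM in IgG controls. The overlap is short, since Tead2 ends at 44883068. Whether counting used strand is not stated in the sources at hand, so reads from that overlap cannot be told apart.

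The kinase and the adaptor did not separate the groups. Blk, a Src-family kinase, had 8, 17, 12 and 6 counts in GrB-Fc-KS49 tumours and 14, 5, 4 and 4 counts in IgG controls, or 0.136 ± 0.0665 CPM in the treated tumours against 0.0850 ± 0.0566 CPM in the controls (SD, n = 4 each). Control 1 was above all treated tumours but tumour 2. The log2 fold change was 0.63 with an SE of 0.52 (adjusted p = 0.45, edgeR fit without the low-count filter). It was 0.28 without GrB-Fc-KS49 tumour 2 and 1.21 without IgG control 1. Bank1, a scaffold between the receptor's kinases, was at 0.626, 0.466, 0.428 and 0.361 CPM in the GrB-Fc-KS49 tumours and at 0.423, 0.435, 0.235 and 0.422 CPM in IgG controls. Tumours 1 and 2 were above the controls and tumours 3 and 4 among them. Its log2 fold change was 0.31 with an SE of 0.28 (adjusted p = 0.446, edgeR quasi-likelihood test). On GRCm39 Blk (ENSMUSG00000014453) spans chr14:63610285-63654486 and Bank1 (ENSMUSG00000037922) chr3:135759124-136031827, both on the - strand.

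The 2 transcriptional regulators were higher in every treated tumour than in any control. Spib, an ETS-family factor that plasmacytoid dendritic cells also express, was at 2.10, 1.97, 0.702 and 0.895 CPM in the GrB-Fc-KS49 tumours and at 0.206, 0.409, 0.290 and 0.397 CPM in IgG controls. Here too tumours 1 and 2 stood above tumours 3 and 4. Its log2 fold change of 2.12, with an SE of 0.42, had the smallest unadjusted p of the members, 0.000803, and an adjusted p of 0.0619 (edgeR quasi-likelihood test). Pou2af1 had 18, 23, 6 and 11 counts in GrB-Fc-KS49 tumours and 2, 4, 2 and 1 counts in IgG controls, or 0.185 ± 0.103 CPM in the treated tumours against 0.0292 ± 0.0170 CPM in the controls (SD, n = 4 each). The fitted log2 fold change was 2.58 with an SE of 0.58 (adjusted p = 0.0844, edgeR fit without the low-count filter). With 9 control reads in all, the size of that fold change is loosely set. The 6 counts of GrB-Fc-KS49 tumour 3 had an exact Poisson interval of 2.2 to 13.1 counts (95%, counting error only). For IgG control 2, with 4 counts, it was 1.09 to 10.2 counts, so the intervals overlap. Spib (ENSMUSG00000008193) spans chr7:44175417-44181495 on the - strand and Pou2af1 (ENSMUSG00000032053) chr9:51125008-51151380 on the + strand of GRCm39.

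**Figure D1:**
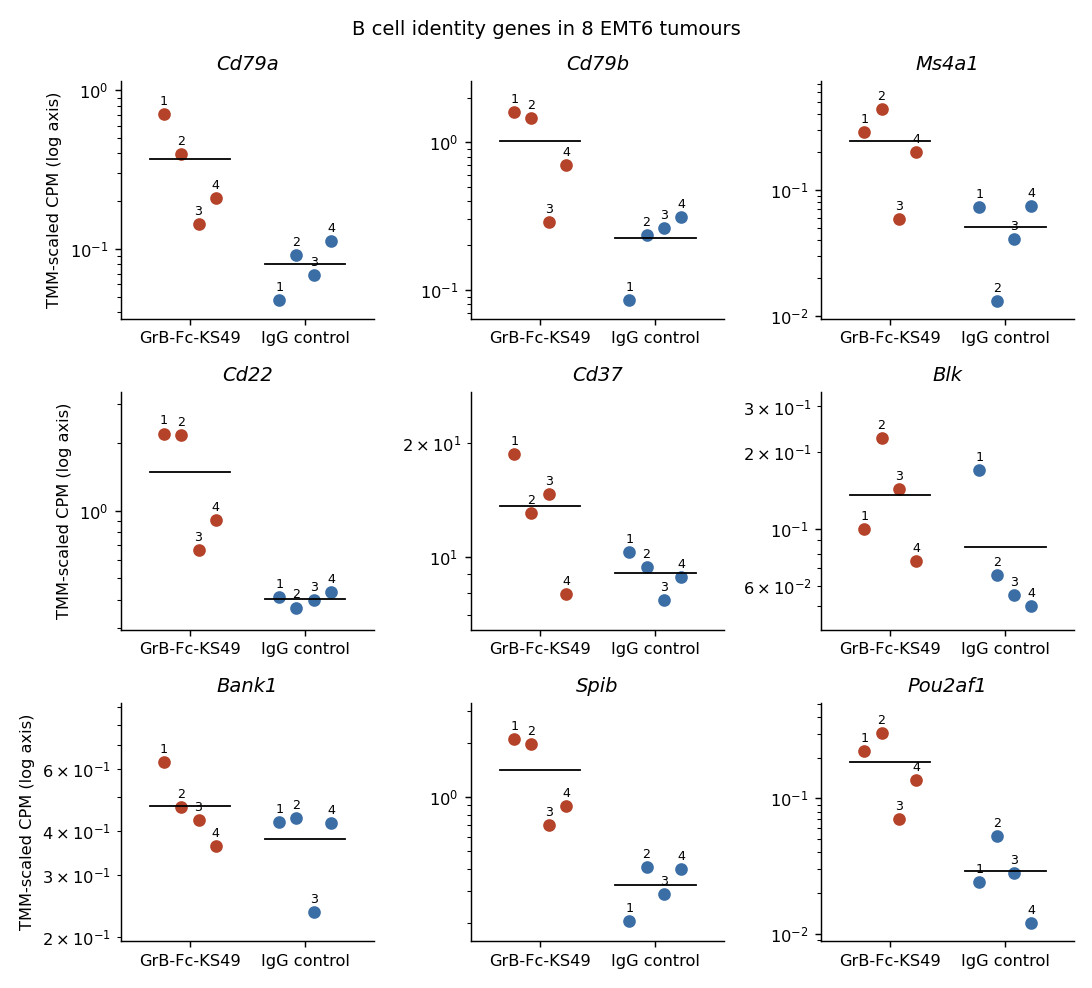
TMM-scaled CPM of each B cell identity gene on a log axis, 1 panel per gene with its own scale, GrB-Fc-KS49 tumours on the left and IgG controls on the right. Points are tumours with their replicate numbers and lines are arithmetic group means; Cd79a, Cd22, Spib and Pou2af1 do not overlap, and tumours 1 and 2 lie above tumours 3 and 4 in Cd79a, Cd79b, Ms4a1, Cd22, Spib and Pou2af1.

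The promoters of the 4 members whose groups did not overlap are printed below, since these genes were high and low in much the same tumours. Each is the stretch of 250 bases before the gene's start on its own strand, 5′ to 3′, from RefSeq on GRCm38.p6, a different build from that of the gene coordinates above. Capitals mark the motifs searched on both strands: TGCAAAT, which is the octamer ATGCAAAT without its first letter, and AGGAAGT, an ETS core with its flanks.
Cd79a promoter, chr7:24897247-24897496, + strand: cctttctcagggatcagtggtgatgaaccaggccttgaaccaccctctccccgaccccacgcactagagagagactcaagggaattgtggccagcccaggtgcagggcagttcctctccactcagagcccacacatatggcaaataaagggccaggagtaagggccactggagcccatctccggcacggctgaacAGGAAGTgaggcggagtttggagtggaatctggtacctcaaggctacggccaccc
Cd22 promoter, chr7:30879029-30879278, - strand: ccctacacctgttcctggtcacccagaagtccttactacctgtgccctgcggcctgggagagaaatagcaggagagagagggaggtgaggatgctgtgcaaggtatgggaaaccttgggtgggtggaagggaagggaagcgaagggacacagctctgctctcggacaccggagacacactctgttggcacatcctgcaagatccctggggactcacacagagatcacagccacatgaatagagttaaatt
Spib promoter, chr7:44532072-44532321, - strand: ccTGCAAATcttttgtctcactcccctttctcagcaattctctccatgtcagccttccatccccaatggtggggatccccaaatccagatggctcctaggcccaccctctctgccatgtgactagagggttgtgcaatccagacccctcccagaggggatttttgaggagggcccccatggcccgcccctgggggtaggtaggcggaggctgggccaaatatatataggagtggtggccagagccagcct
Pou2af1 promoter, chr9:51213440-51213689, + strand: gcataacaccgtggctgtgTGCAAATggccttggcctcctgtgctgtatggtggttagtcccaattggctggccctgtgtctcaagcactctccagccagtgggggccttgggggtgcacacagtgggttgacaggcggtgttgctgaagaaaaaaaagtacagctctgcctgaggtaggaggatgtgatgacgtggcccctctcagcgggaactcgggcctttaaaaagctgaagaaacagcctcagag

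A promoter entry was matched for 6 of the 9 members, Cd79a, Cd22, Cd37, Bank1, Spib and Pou2af1, and the others were Ms4a1, Cd79b and Blk. TGCAAAT lay in the Spib promoter, at position -248 from the gene's start, and in the Pou2af1 promoter, at -231, while 3.58% of 32536 promoters of the same length hold it. AGGAAGT lay at -55 in the Cd79a promoter and, on the other strand, at -25 in that of Cd37, and 7.7% of promoters hold it. The whole octamer ATGCAAAT, present in 1.62% of promoters, was in none of the 6. The Cd22 and Bank1 windows held none of the 3 words. The words were chosen after the promoters were read, so the shares over all promoters make no test of them. These matches describe the letters of the windows and no binding was measured.

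Counted over the group, 4 of 9 members had every GrB-Fc-KS49 tumour above every IgG control, against 8.95% of all 26709 genes. Of the 6 members that passed the low-count filter, 5 had an unadjusted p under 0.05 and a higher treated mean, against 17.3% of the 19718 genes tested; the 5 include Cd79a, which passed only through the treated libraries and so had to differ. In the edgeR fit without that filter these were 7 of 9, all but Blk and Bank1, against 15% of 26709 genes. All 9 had a log2 fold change above 0 in that fit, as had 55.7% of all genes, and their median was 2.10, against 0.07 over all genes. Without GrB-Fc-KS49 tumour 3, members without overlap were 6 of 9, with Cd79b and Ms4a1 added, against 13.3% of all genes. The members were chosen with earlier results of these data known, so these counts and medians describe them and carry no test.

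Other fits moved single members across the threshold. DESeq2 called Cd79a, Cd79b, Cd22 and Spib (adjusted p = 0.0106, 0.00586, 0.0015 and 0.000632) in a fit that called 11.5% of genes as higher, and Ms4a1 (adjusted p = 0.0238) in its fit without the low-count filter, which called 8.31% of genes as higher and gave no adjusted p for Pou2af1. limma-voom with sample weights called Cd22 and Spib, with 2.39% of genes called as higher. Without GrB-Fc-KS49 tumour 1 edgeR called Spib alone of the members (adjusted p = 0.0446, with 2.23% of genes called as higher). Without tumour 4 it called Cd79a, Cd79b, Cd22, Cd37 and Spib (adjusted p = 0.0359, 0.0455, 0.0274, 0.0277 and 0.0258, with 7.12% of genes called as higher), and Pou2af1 (adjusted p = 0.042) in the fit without the low-count filter, where 3.46% of genes were called as higher. No alternative turned the direction of any member.

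**Figure D2:**
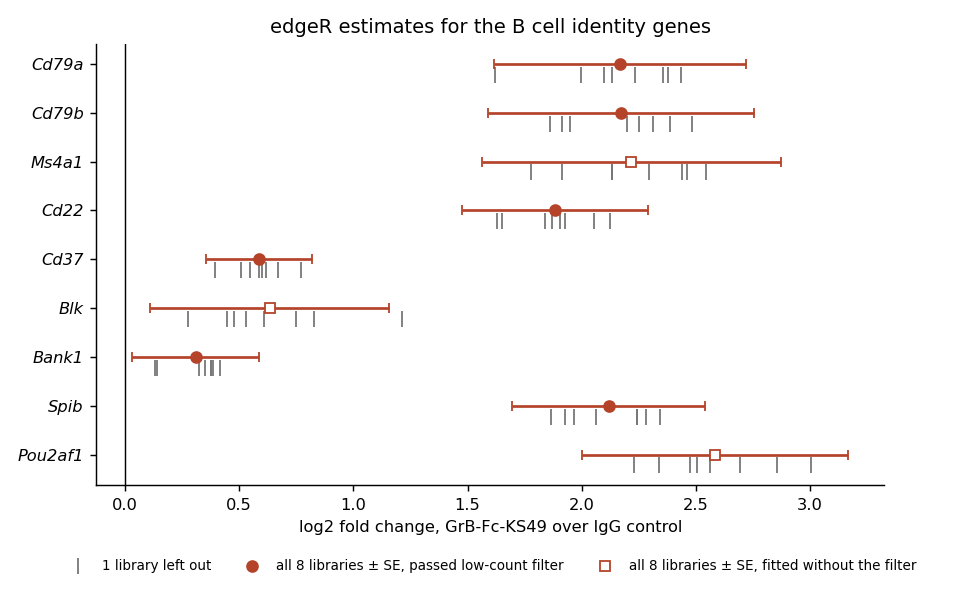
log2 fold change of each B cell identity gene, GrB-Fc-KS49 over IgG control, on the x axis, with bars of 1 SE. Filled points passed the low-count filter, open squares were fitted without it, and grey ticks are the estimates with 1 library left out; all ticks lie above 0, and those of Blk run from 0.28 without GrB-Fc-KS49 tumour 2 to 1.21 without IgG control 1.

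The treated tumours differed among themselves in how many members stood out. GrB-Fc-KS49 tumour 1 had 8 of 9 members above every control, where 41.3% of all genes were, and tumour 2 had 9 of 9, where 34.3% were. Tumour 3 had 5 of 9, where 33.1% of genes were, and tumour 4 had 6 of 9, where 24.9% were. The median of the members' log2 ratio to the control mean was 2.20, 2.36, 0.68 and 1.22 in GrB-Fc-KS49 tumours 1 to 4, against 0.04, 0.19, -0.12 and 0.19 in IgG controls 1 to 4. Tumours 1 and 2 lay close together and tumour 3 was nearest to the controls. The members in tumour 3 that lay above every control were Cd79a, Cd22, Cd37, Spib and Pou2af1. In tumour 4 they were Cd79a, Cd79b, Ms4a1, Cd22, Spib and Pou2af1.

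Tumour 3 is also the treated library whose title ends in U, a suffix that IgG control 1 shares and that no label explains. Between these 2 libraries the ratio of CPM, tumour 3 over control 1, was 3.41 for Spib, 3.36 for Cd79b, 2.98 for Cd79a, 2.96 for Pou2af1 and 1.62 for Cd22. It was 1.43 for Cd37, 1.01 for Bank1, 0.846 for Blk and 0.808 for Ms4a1, with 1 library on each side and so no test. With both libraries left out, 7 of 9 members had every treated tumour above every control, Cd79b, Ms4a1 and Blk having joined the 4, against 13.2% of all genes. The log2 fold change of Blk was then 1.17 (adjusted p = 0.258, edgeR fit without the low-count filter).

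Per length of transcript, Cd37, Cd79b and Spib led the members' levels in both groups. In GrB-Fc-KS49 tumours Cd37 was first, at 5.35 CPM per kb, followed by Cd79b at 0.707, Spib at 0.509, Cd22 at 0.376, Cd79a at 0.252 and Bank1 at 0.144 CPM per kb. Ms4a1 at 0.0802, Pou2af1 at 0.0726 and Blk at 0.0585 CPM per kb were last. Only the steps below Cd37 and below Bank1 were larger than the SD of either neighbour. In IgG controls the levels were 3.56 CPM per kb for Cd37, 0.156 for Cd79b, 0.117 for Spib, 0.116 for Bank1 and 0.102 for Cd22. They were 0.0551 CPM per kb for Cd79a, 0.0365 for Blk, 0.0164 for Ms4a1 and 0.0115 for Pou2af1, and only the steps below Cd37 and below Cd22 exceeded the SD of either neighbour. Bank1 and Blk stood higher in the order of the controls.

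The members also differed in how closely they followed their common pattern, the mean of their z-scored log2 CPM over the 8 tumours. The root mean square difference from it was 0.197 for Cd22, 0.297 for Spib, 0.332 for Cd79a and 0.386 for Pou2af1. It was 0.506 for Ms4a1 and 0.508 for Cd79b, and largest for Cd37 at 0.660, Bank1 at 0.776 and Blk at 0.933. Among 14186 protein-coding genes outside the members, the 6 nearest were Bcl11a at 0.119, Gm21988 at 0.186, Cxcr3 at 0.190, Ccr9 at 0.205, Arl5c at 0.212 and Klk1 at 0.218. Bcl11a, a zinc finger factor of B cells and plasmacytoid dendritic cells, was at 1.49, 1.92, 0.595 and 0.510 CPM in the GrB-Fc-KS49 tumours and at 0.290, 0.264, 0.193 and 0.273 CPM in IgG controls. Cxcr3, a chemokine receptor of activated T cells among others, averaged 0.991 ± 0.465 CPM in GrB-Fc-KS49 tumours, against 0.309 ± 0.0632 CPM in the IgG controls (SD, n = 4 each). None of the 6 overlapped between the groups, where 8.95% of all 26709 genes had every treated tumour above every control. They were picked for likeness to the members' pattern in these same tumours, so this is no separate result.

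Genes next to the members were measured as well. Scn4a, a muscle sodium channel gene 3830 bases upstream of Cd79b on the same strand, was at 5.66, 0.533, 0.857 and 0.187 CPM in the GrB-Fc-KS49 tumours and at 0.713, 0.264, 0.0276 and 0.434 CPM in IgG controls. Mybpc2, a muscle myosin-binding protein gene 1337 bases downstream of Spib on the same strand, was at 147, 23.3, 27.4 and 2.86 CPM in the GrB-Fc-KS49 tumours and at 15.4, 5.80, 3.12 and 11.1 CPM in IgG controls. In GrB-Fc-KS49 tumours 1 to 4 Cd79b was at 1.603, 1.465, 0.286 and 0.696 CPM and Spib at 2.10, 1.97, 0.702 and 0.895 CPM. The part of reads from neighbouring genes in the members' counts was not tested. Arhgef1, 715 bases downstream of Cd79a on the same strand, averaged 91.4 CPM in GrB-Fc-KS49 tumours, against 89.6 CPM in IgG controls. Pold1, 675 bases upstream of Spib on the same strand, averaged 24.2 CPM in GrB-Fc-KS49 tumours, against 25.9 CPM in IgG controls.

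Other genes of the lineage were followed through lists chosen by function. Some were far more abundant than most members. Cd72, Irf8, Pou2f2 and Blnk averaged 57.3, 53.3, 18.7 and 9.39 CPM in GrB-Fc-KS49 tumours, where Cd22 averaged 1.49 and Cd79a 0.367 CPM. The part of B cells in the levels of the listed genes was not tested. Of 16 tested genes of B cell receptor signalling, 11 had a higher and 5 a lower estimate in GrB-Fc-KS49 tumours, where 53.2% of all tested genes were higher. The median log2 fold change was 0.26. At an unadjusted p under 0.05, 4 of the 16 were higher, against 17.3% of all genes tested. Among them were Blnk, the adaptor that links SYK to its targets, Prkcb, a protein kinase C, and Pik3cd, a catalytic subunit of PI3-kinase. Blnk was at 9.39 ± 2.58 CPM in the GrB-Fc-KS49 tumours, against 6.12 ± 1.11 CPM in the IgG controls (SD, n = 4 each). Syk, the kinase that binds phosphorylated CD79 chains and is shared with myeloid cells, was at 70.1 ± 9.30 CPM in the GrB-Fc-KS49 tumours, against 72.7 ± 3.60 CPM in IgG controls. Syk was picked after its values were seen.

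Of 7 tested coreceptors and inhibitory receptors all 7 had a higher estimate, with a median log2 fold change of 0.29. The 3 at an unadjusted p under 0.05 were Fcrla, Cd81 and Cd72, where 17.3% of all genes tested were higher under that p. Fcrla, an Fc receptor-like protein kept inside B cells, was at 0.640 ± 0.364 CPM in the GrB-Fc-KS49 tumours, against 0.213 ± 0.0638 CPM in the IgG controls (SD, n = 4 each), without overlap. Cd72, a lectin with inhibitory function, was at 104, 71.2, 17.6 and 35.9 CPM in the GrB-Fc-KS49 tumours and at 13.1, 22.1, 29.1 and 27.4 CPM in IgG controls. Tumour 3 lay among the controls for Cd72.

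Among 12 B lineage transcription factors 9 had a higher and 3 a lower estimate, with a median log2 fold change of 0.35. At an unadjusted p under 0.05 Pou2f2, Ikzf3 and Irf8 of the 12 were higher, against 17.3% of all genes tested. Bcl6, the factor of germinal centres, was lower under that p, as were 17.8% of all genes tested. Pou2f2, the octamer factor that POU2AF1 binds, was at 36.1, 19.7, 7.92 and 11.1 CPM in the GrB-Fc-KS49 tumours and at 3.62, 5.84, 6.29 and 7.79 CPM in IgG controls. Its groups did not overlap, and its log2 fold change was 1.67 with an SE of 0.47 (adjusted p = 0.0645, edgeR quasi-likelihood test). Bcl6 averaged 35.9 ± 1.73 CPM in GrB-Fc-KS49 tumours, against 39.9 ± 1.37 CPM in the IgG controls (SD, n = 4 each). Pax5, the factor that commits cells to the lineage, was at 0.563, 0.426, 0.036 and 0.472 CPM in the GrB-Fc-KS49 tumours and at 0.024, 0.185, 0.359 and 0.236 CPM in IgG controls. Its lowest values were those of tumour 3 and control 1, the libraries with the U suffix, and it was picked after its values were seen.

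The list of survival and homing genes had 9 of 9 tested genes with a higher estimate and a median log2 fold change of 0.96. Of these, 6 were at an unadjusted p under 0.05, where 17.3% of all genes tested were higher under that p. Cxcl13, the chemokine that draws B cells into follicles, was at 7.47, 4.75, 0.964 and 4.39 CPM in the GrB-Fc-KS49 tumours and at 0.024, 0.765, 0.635 and 0.285 CPM in IgG controls. Its receptor Cxcr5 was at 0.299 ± 0.115 CPM in the GrB-Fc-KS49 tumours, against 0.153 ± 0.0579 CPM in the IgG controls (SD, n = 4 each), with overlap. Ltb, which encodes lymphotoxin beta, and Ccr7, the receptor that guides cells to lymph nodes, had log2 fold changes of 2.24 and 1.31 (adjusted p = 0.0619 for both, edgeR quasi-likelihood test), and neither overlapped.

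Genes of mature B cells and antibody had 6 higher and 1 lower estimate among 7 tested and a median log2 fold change of 1.45. Ighd, Igkc, Cd83, H2-Oa and H2-Ob were higher at an unadjusted p under 0.05, against 17.3% of all genes tested. Igkc, the kappa light chain constant gene, was at 19.97, 12.4, 1.19 and 1.28 CPM in the GrB-Fc-KS49 tumours and at 0.145, 1.503, 0.566 and 0.409 CPM in IgG controls. Tumours 1 and 2 stood far above all others, while tumours 3 and 4 lay below control 2. Ighm, the constant gene of IgM, was at 32.5, 33.4, 4.12 and 17.2 CPM in the GrB-Fc-KS49 tumours and at 1.22, 10.1, 10.9 and 9.62 CPM in IgG controls (adjusted p = 0.2, edgeR quasi-likelihood test). Ighd, which marks naive B cells together with Ighm, had a log2 fold change of 2.14 with an SE of 0.61 (adjusted p = 0.0646, edgeR quasi-likelihood test). With 38, 43, 13 and 16 counts in GrB-Fc-KS49 tumours and 2, 12, 6 and 4 counts in IgG controls, Ighd passed the low-count filter through the treated libraries. How reads were divided between like immunoglobulin genes is not given, so these levels are uncertain.

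Of 3 genes of early B cell development Vpreb1 and Dntt had a higher estimate at an unadjusted p under 0.05 and Cd93 a lower one. Of 6 tested plasma cell genes 4 had a higher and 2 a lower estimate, with a median log2 fold change of 0.20. Jchain alone of the 6 was at an unadjusted p under 0.05, where 17.3% of all genes tested were higher under that p. Jchain, which joins secreted antibodies, was at 2.24, 1.86, 0.143 and 0.249 CPM in the GrB-Fc-KS49 tumours and at 0.012, 0.356, 0.124 and 0.050 CPM in IgG controls. Jchain and Dntt also passed the low-count filter through the treated libraries, with 10 or more counts in only 1 control each. Prdm1, a plasma cell regulator that other cells of a tumour also express, averaged 22.6 ± 6.59 CPM in GrB-Fc-KS49 tumours, against 28.0 ± 7.13 CPM in the IgG controls (SD, n = 4 each).

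**Figure D3:**
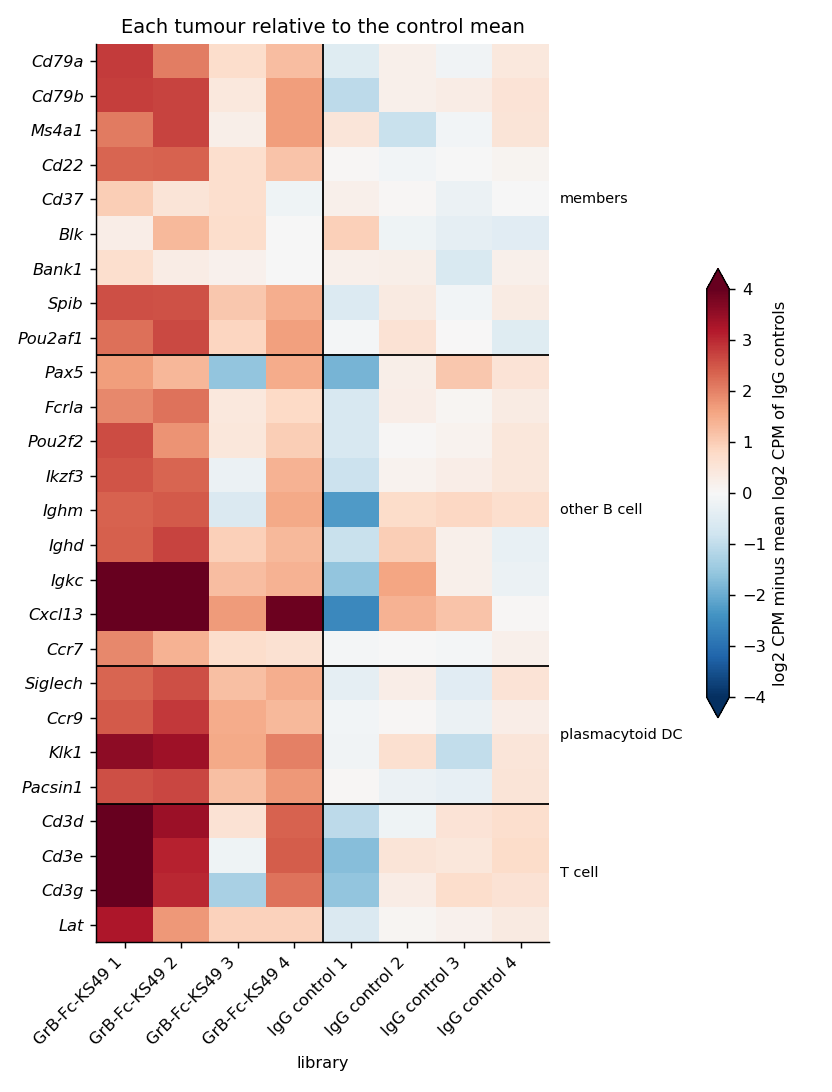
log2 CPM of the B cell identity genes and of selected B lineage, plasmacytoid dendritic cell and T cell genes in each library (columns), minus the mean of the IgG controls. Colours end at a difference of 4 in either direction and larger differences take the end colour; tumours 1 and 2 are deep red in most rows, and tumour 3 is pale or blue in Pax5, Ighm and the Cd3 genes.

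Markers of other immune cells also had higher estimates in GrB-Fc-KS49 tumours. Of 10 plasmacytoid dendritic cell markers, all tested, 8 had a higher estimate and 7 an unadjusted p under 0.05, and none was at 0 in any library. Siglech, Ccr9, Klk1 and Pacsin1 of that list did not overlap between the groups, where 8.95% of all genes had every treated tumour above every control. Pacsin1, with 12, 9, 8 and 17 counts in IgG controls, passed the low-count filter with the help of the treated libraries. All 12 T cell markers had a higher estimate and 9 an unadjusted p under 0.05. Under that p, 17.3% of all genes tested were higher, the share to set beside both lists. The median log2 ratio to the control mean was 2.51, 1.56, 0.90 and 1.01 for the plasmacytoid list and 2.89, 2.09, 0.04 and 1.12 for the T cell list in GrB-Fc-KS49 tumours 1 to 4. Summed levels were ordered otherwise. The plasmacytoid list summed to 811, 517, 559 and 562 CPM in these tumours and to between 431 and 481 CPM in IgG controls, and the T cell list to 140, 98.6, 89.3 and 66.7 CPM and to between 52.5 and 78.4 CPM in IgG controls. The most abundant gene of the plasmacytoid list, Tcf4, averaged 267 ± 108 CPM in GrB-Fc-KS49 tumours, against 268 ± 30.5 CPM in the IgG controls (SD, n = 4 each). Within tumour 3 the genes of a list did not move together: Siglech was at a log2 ratio of 1.19 and Irf7 at -1.19, and Lat was at 0.91 and Cd3g at -1.29, genes picked after their values were seen. For Spib, which B cells and plasmacytoid dendritic cells share, the part of either cell type in its level was not tested.

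Markers of muscle, skin and fat differed between libraries too. Of all genes tested, 17.3% were higher at an unadjusted p under 0.05, the share to set beside the counts that follow. Skeletal muscle markers, with 12 of 12 higher and 10 at an unadjusted p under 0.05, summed to 49.0 to 2940 CPM in GrB-Fc-KS49 tumours, against 52.3 to 241 CPM in IgG controls, with the highest value in tumour 1. The 8 skin markers, of which Krt10, Krt5 and Krt14 were tested and were higher at an unadjusted p under 0.05, summed to 2110 CPM in tumour 2 and to 6.60 to 16.8 CPM in all other libraries, and adipocyte markers were highest in tumour 3, at 384 CPM. Tumour 4 had muscle, skin and adipocyte sums of 49.0, 8.64 and 69.9 CPM, each within or below the control range. Of the lymph node stroma genes, Ccl21a was at 2.49, 2.50, 0 and 0.112 CPM in the GrB-Fc-KS49 tumours and at 0.060, 0, 0 and 0.012 CPM in IgG controls, and only Tnfsf11 and Lyve1 of that list passed the low-count filter. Without that filter the median log2 fold change of its 7 genes was 2.14, against 0.07 over all genes. Ccl19, Glycam1, Chst4 and Madcam1, on few reads, and Tnfsf11 also had higher treated means. Lyve1 had a lower one, with a log2 fold change of -0.84. Macrophage markers summed to 1050 to 2260 CPM in GrB-Fc-KS49 tumours, against 862 to 1090 CPM in IgG controls, with 7 of 8 higher. Log2 fold changes were 0.352 for Mertk, 0.305 for Adgre1, 0.223 for Cd68, 0.037 for Csf1r and -0.388 for Mrc1. For C1qa, C1qb and C1qc, the most abundant of the list in GrB-Fc-KS49 tumours, they were 1.19, 1.17 and 1.14. Only these C1q genes were at an unadjusted p under 0.05. Pan-leukocyte markers had 7 of 8 higher estimates, with Coro1a, Laptm5 and Cd52 under that p, and conventional dendritic cell markers 7 of 8, with 6 under it and Zbtb46 lower under it. Adipocyte and epithelial markers had 8 of 8 higher estimates each, with Fabp4, Lipe, Adrb3 and Pparg of the first list and Esrp1 of the second under that p. Adrb3, with 3, 4, 10 and 10 counts in IgG controls, passed the low-count filter with the help of the treated libraries. The part of these tissues and cells in the members' levels was not tested.

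**Figure D4:**
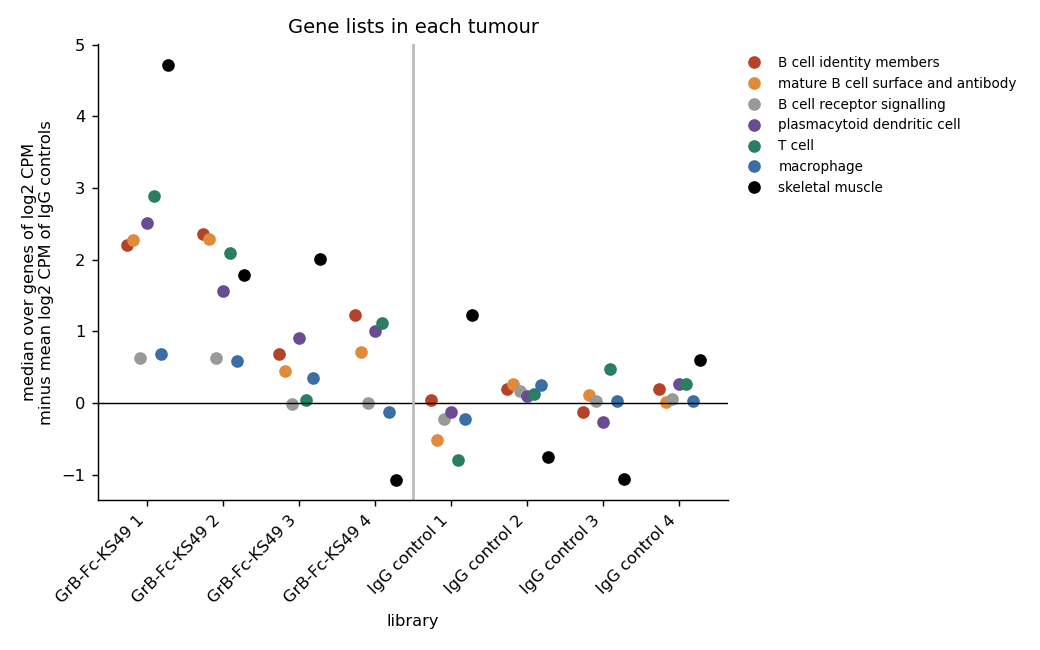
Median over the genes of a list of log2 CPM minus the mean log2 CPM of the IgG controls (y axis) in each library (x axis), GrB-Fc-KS49 tumours on the left. B cell identity genes lie at 2.20, 2.36, 0.68 and 1.22 in tumours 1 to 4 and between -0.12 and 0.19 in controls, while muscle markers range from -1.07 to 4.72 over the treated tumours.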

How the data were processed

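Messenger RNA was enriched and made into strand-marked libraries (KAPA Stranded mRNA-Seq), per the labels' protocols. Demultiplexing used bcl2fastq 2.19.1.403 and alignment used STAR against GRCm39, per the submitters' processing notes. No source used here names the quantifier, the annotation release or the use of strand. The authors deposited estimated counts per gene for 26709 genes, with 46.0% to 47.8% whole values in each library, and a table of CPM made from the same counts. Every gene had a total of at least 10 counts. Library totals were 74.0 to 82.6 M counts. Gene coordinates are those of the deposited table, written 1-based.

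Estimated counts were rounded and scaled by TMM, and printed CPM are TMM-scaled. Genes were kept by filterByExpr and compared with edgeR 4.0.16 (robust quasi-likelihood F test, R 4.3.3), with Benjamini-Hochberg adjustment over all 19718 genes and a threshold of 0.05, without covariates. Ms4a1, Blk and Pou2af1 did not pass that filter, so their fold changes come from the same fit over all 26709 genes. The biological coefficient of variation was 27.8%. Log2 ratios of single tumours used a prior count of 2. Levels per kb used the longest protein-coding transcript in GENCODE M21. Poisson intervals are 95% and exact.

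The members, the lists and the tests were chosen with earlier results of these data known, and the motifs after the promoters were read. Named genes were all members, up to 4 genes with the smallest p and, for other cell types, the first 3 of each list, of which the report prints some, the 6 genes nearest to the members' pattern (mean CPM of at least 0.2), genes within 5000 bases of a member, and genes behind counts of 5 or fewer. Alternatives were other scalings, no filter and a filter of CPM of at least 1 in 4 or more libraries, DESeq2 1.42.0, limma-voom with sample weights (limma 3.58.1), limma on the deposited CPM with 1 or 0.25 added before the log2, every library left out in turn, and the U suffix left out or as a covariate. Removal of trends with transcript length and GC content (mgcv 1.9.3) was added after seeing the data. Igll1, Rag1, Rag2 and Fdcsp, also on the lists, were not analysed here, and some other listed genes are not reported here.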

Additional observations from a re-analysis of the deposited data

Results flagged for a closer look

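Of 18 groups of 4 tumours, 2 held a value far from the other 3, and chance gives about 1 such group in 20. Blk was at 0.169 CPM in IgG control 1, against 0.050 to 0.066 CPM in the other controls, which is 14 counts against 4 or 5. Bank1 was at 0.235 CPM in IgG control 3, against 0.422 to 0.435 CPM in the other controls.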

How the results depend on the processing

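No member changed direction under any alternative run. The number of genes called over all genes, 0 in the fit reported, was 4747 with DESeq2 and 1291 with limma-voom with sample weights, and ran from 0 to 3447 with 1 library left out: 3447 without GrB-Fc-KS49 tumour 4, 1260 without tumour 1, and 0 without any other. Of 6 tested members, 5 were higher at an unadjusted p under 0.05, against 17.3% of genes tested. With 1 library left out these were 4 to 7, of 6 to 9 members tested. With a CPM of at least 1 required in 4 or more libraries it was 1, and Cd37 was the only member tested. In the fits with 1 library left out, Ms4a1 and Pou2af1, where tested, passed the low-count filter only through the treated libraries. So did Cd79a in those fits and in the fit reported, and genes that pass in that way had to differ. The members without overlap were 4 of 9, against 8.95% of all genes. They were 4 to 6 of 9 with 1 library left out, the 6 being without GrB-Fc-KS49 tumour 3, against 13.3% of genes. Without both U libraries they were 7 of 9, against 13.2%. Under that stricter filter they were 0, with Cd37 alone kept. Under upper quartile scaling, 61.4% of the genes at an unadjusted p under 0.05 were higher, against 49.2% with TMM, the median over all genes was 0.09 on the log2 scale, against 0.03, and the same 5 members were at an unadjusted p under 0.05. With length and GC trends removed, an alternative added after seeing the data, 0 genes were called and 4 of those 5 members, all but Cd37, stayed under an unadjusted p of 0.05. Log2 fold changes on the log2(CPM + 1) scale were lower for scarce members (0.20 for Pou2af1, 0.32 for Cd79a), since the added constant exceeds their levels. The few reads of Ms4a1, Blk, Cd79a and Pou2af1 limit their fold changes. No paired analysis was possible because replicate numbers follow accession order and pair nothing across the groups.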
